A study of Homo sapiens with 4 samples.

Results

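The nuclear genes for subunits of the mitochondrial respiratory chain and ATP synthase were examined in MKN45, an epithelial cell line from a human gastric adenocarcinoma, after exposure to Helicobacter pylori lipopolysaccharide (LPS). Members were taken by symbol: those starting with NDUFA, NDUFB, NDUFC, NDUFS, NDUFV, UQCR, ATP5, COX4, COX5, COX6, COX7 or COX8, and the SDH genes, without NDUFAF assembly factors and pseudogenes. This gave 80 of the 19775 symbols on the array, of which 77 are protein-coding subunit genes and 3 are neighbouring non-coding transcripts (NDUFB2-AS1, NDUFV1-DT and NDUFV2-AS1). One group was 2 cultures given medium with 10 µg/ml H. pylori LPS, and the other was 2 untreated cultures given fresh medium alone. All 4 were harvested at 8 h, and their RNA was hybridised to 1 expression array each. The cultures came from 2 independent experiments on 1 cell line. Which culture belongs to which experiment is not stated, so the spread given here is that between the 2 arrays of a group. Values are log2 expression levels, each gene is represented by its brightest probe set, and a difference is the log2 fold change of LPS-treated over untreated cells.

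The respiratory chain passes electrons from NADH (complex I) and succinate (complex II) through ubiquinone to complex III, cytochrome c and complex IV, where oxygen is reduced. Complexes I, III and IV pump protons out of the mitochondrial matrix, and complex V, the ATP synthase, uses their return to make ATP. Most subunits are encoded in the nucleus by widely expressed genes, many of which carry binding sites for NRF1, for ETS-family factors such as GABP, and for YY1, and a few core subunits are encoded by mitochondrial DNA.

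No subunit gene passed the test, and their levels differed little between LPS-treated and untreated cells. Of the 80 symbols, 77 lay above the level filter: all 33 of complex I, 3 of complex II, 6 of complex III and 18 of complex V, 15 of 17 of complex IV, and 2 of the 3 non-coding transcripts. With limma fitted across all genes and Benjamini-Hochberg adjustment, 0 of these 77 had an adjusted p under 0.05, against 4 of all 16252 genes tested (0.0246%), all 4 of them higher in LPS-treated cells. The smallest adjusted p of a member was 0.285, for UQCRB. The 75 protein-coding subunits tested had log2 fold changes between -0.21 and 0.14, and 55 of the 77 symbols lay within 0.1 of 0 and 73 within 0.2. Since the values were already scaled alike between arrays, they give shares of the RNA, and fewer cells and less RNA per cell cannot be told apart.

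**Figure D1:**
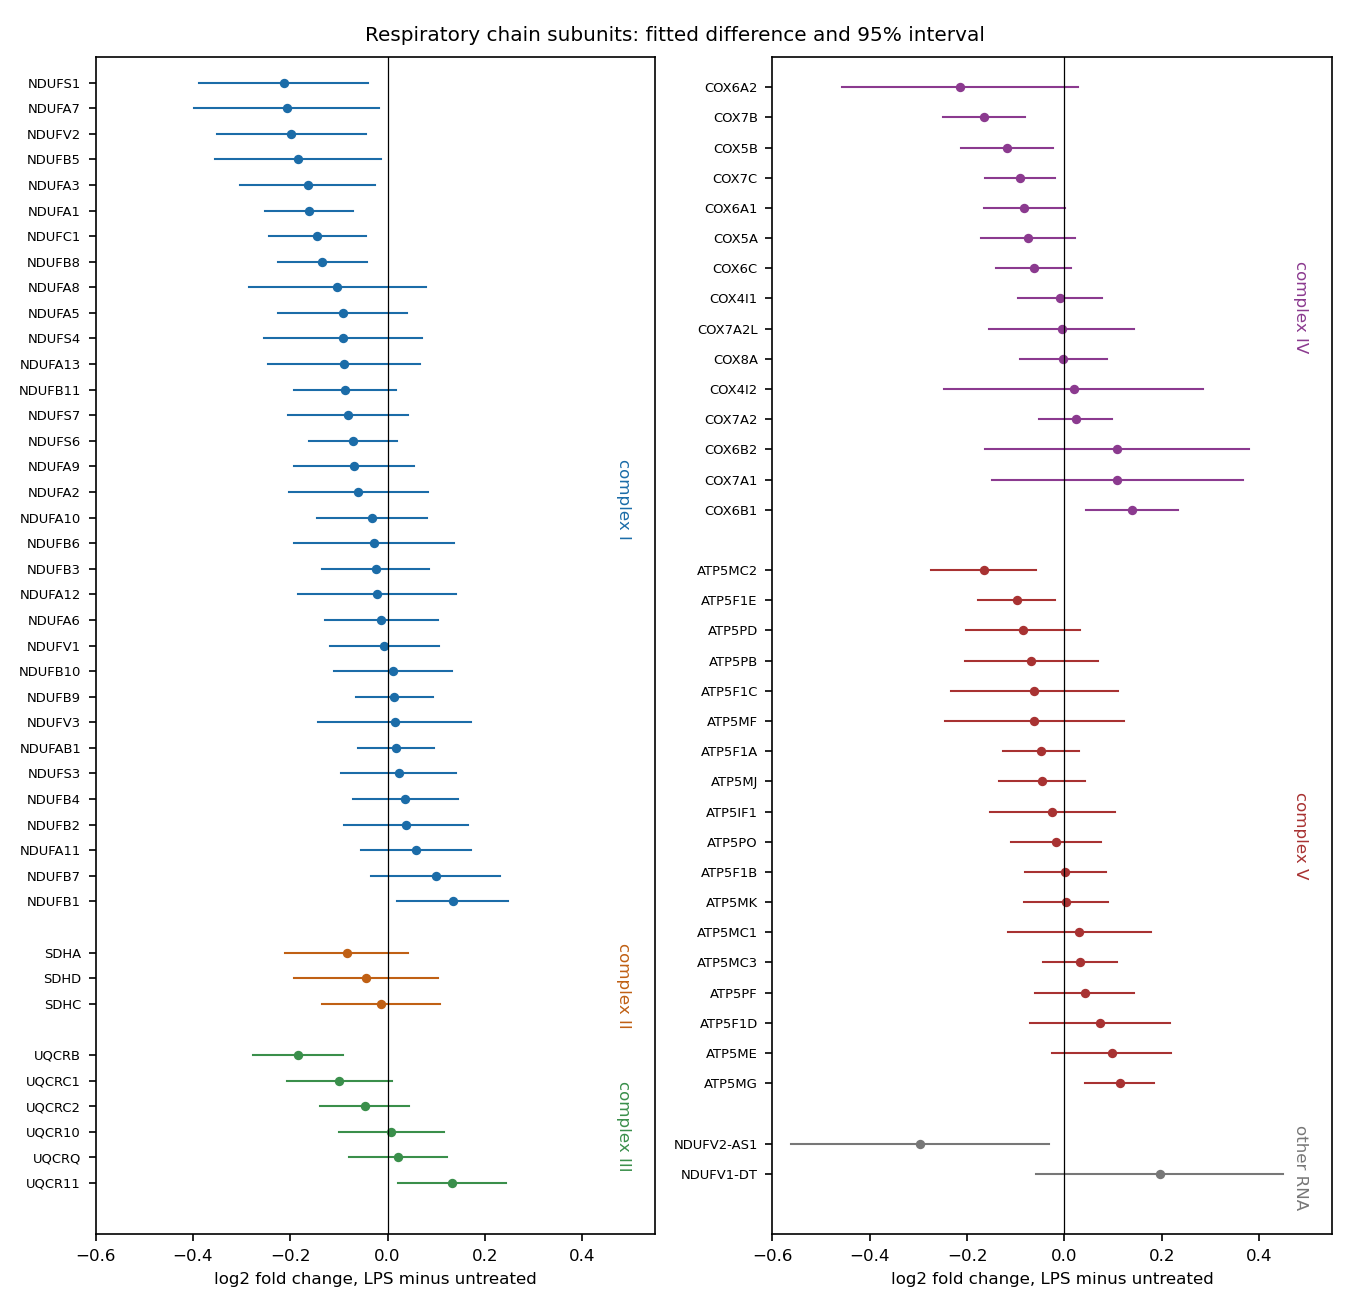
Log2 fold change (LPS minus untreated, horizontal axis) of each subunit symbol tested, ordered within its complex, with the 95% interval of the limma fit. Points of the protein-coding subunits lie between -0.21 and 0.14, and 0 of the 77 passed the adjusted threshold.

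Small differences were more often downward than upward. Members with an unadjusted limma p under 0.05, called the nominal threshold here, numbered 15 on the lower side (19.5%, against 7.91% of all genes tested) and 4 on the higher side (5.19%, against 3.72%). Both LPS arrays lay below both untreated arrays for 31 members (40.3%, against 25.7% of all genes) and above both for 8 (10.4%, against 19.7%), and the groups overlapped for the other 38. The log2 fold change was below 0 for 50 members (64.9%, against 51.8% of all genes), and its median was -0.031, against -0.0047 over all genes tested.

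Most members were bright, and bright genes in general leaned downward on these arrays. When all genes tested were divided by mean level into 10 bins, 63 members fell in the brightest bin and 7 in the next. The other 7 were the complex IV forms COX4I2, COX6A2, COX6B2 and COX7A1, the ATP synthase f subunit ATP5MF, and 2 non-coding transcripts. In the 2 brightest bins together, the median log2 fold change was -0.038 over the 70 members and -0.037 over all 3251 genes. The log2 fold change was below 0 for 47 of the 70 members (67.1%) and for 65.6% of the 3251 genes. Both LPS arrays lay below both untreated arrays for 28 of the 70 (40%) and for 37.9% of the 3251, and above both for 8 of the 70 (11.4%) and for 14.5% of the 3251. Past the nominal threshold, 14 of the 70 were lower (20%), against 14.1% of the 3251, and 4 were higher, against 130 of the 3251. The median shift of the bright members thus had the size of that of bright genes in general, while their share of nominally lower genes was somewhat larger, a difference that was not tested.

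**Figure D2:**
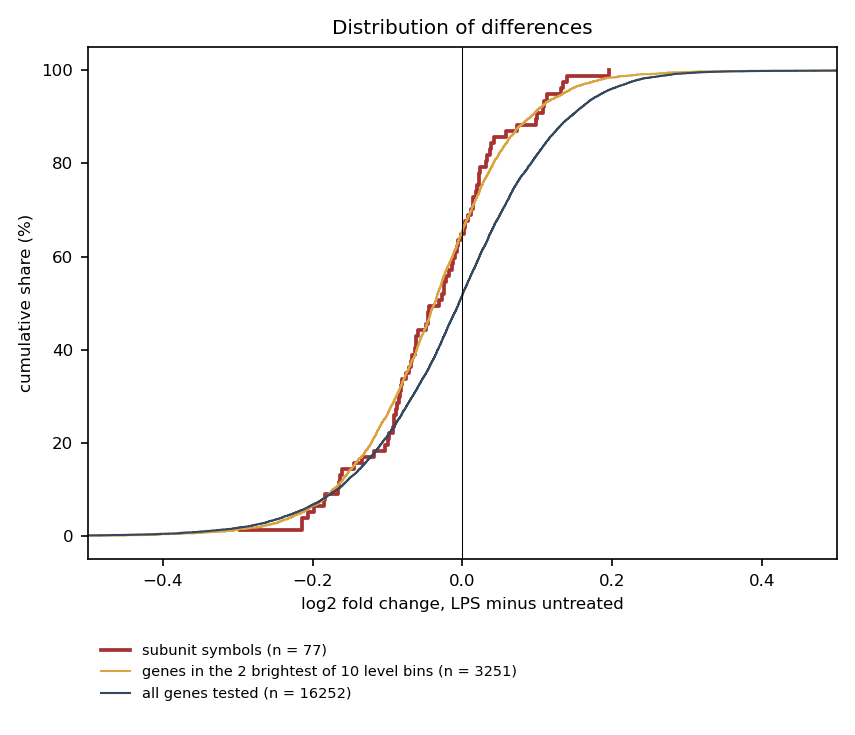
Cumulative share of genes (vertical axis) by log2 fold change, LPS minus untreated (horizontal axis), for the subunit symbols, for the genes of the 2 brightest of 10 level bins, and for all genes tested. Shares below 0 are 64.9% of subunit symbols, 65.6% of bright genes and 51.8% of all genes.

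Differences between group means were set beside those between replicate arrays, which are unlike measures. A group mean averages 2 arrays, so without a group effect the first would tend to be the smaller. The median size of the difference between group means was 0.068 over the members, while the median size of the difference between the 2 arrays of a group was 0.035 in LPS-treated cells and 0.059 in untreated cells. LPS replicate 1 was above LPS replicate 2 for 25 of the 77 members, and untreated replicate 1 was above untreated replicate 2 for 53. Over all genes tested, the median size was 0.078 between groups, 0.068 within LPS-treated cells and 0.091 within untreated cells. The plot of the between-group against the within-group difference shows both for each member.

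**Figure D3:**
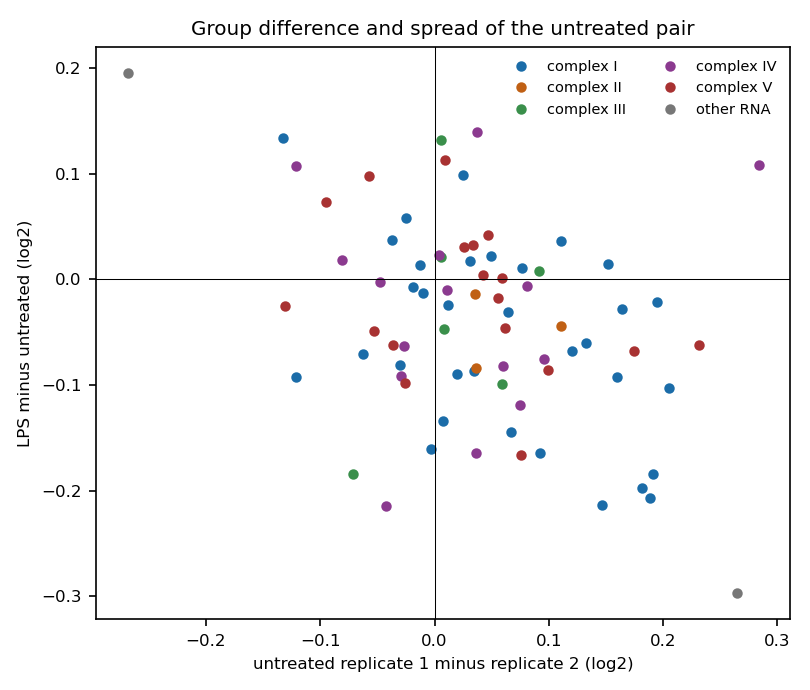
Each point is a subunit symbol, coloured by complex: difference between group means (LPS minus untreated, log2, vertical axis) against the difference between the untreated arrays (replicate 1 minus replicate 2, log2, horizontal axis). Untreated replicate 1 is the higher untreated array for 53 of the 77 symbols.

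Promoters of the subunit genes were searched for motifs of the factors known for this family. RefSeq windows (GRCh38.p14) running from 250 bases before to 50 after each start were at hand for 66 of the 77 protein-coding genes, 79 windows in all. The NRF1 motif, GCGC and TGCGC with any 1 base between them, occurred on either strand in 20.3% of these windows, against 8.26% of the windows of all genes tested. The ETS motif CCGGAAG occurred in 25.3%, against 14.3%, the YY1 motif, AA and ATGGCGG with any 1 base between them, in 19.0%, against 3.28%, and TATAAA in 8.86%, against 7.54%. Among complex I windows 10 of 38 held the YY1 motif. No motif of the 4 contains another, and a window can hold several.

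To show what lies before the start of members at the lower and the higher end, the last 120 bases before the start are printed for NDUFA1 (chrX:119871712-119871831, plus strand) and COX7B (chrX:77899348-77899467, plus strand), which were lower past the nominal threshold, and for COX6B1 (chr19:35648203-35648322, plus strand) and UQCR11 (chr19:1605463-1605582, minus strand), which were higher. Capitals mark matches to the NRF1 and ETS motifs on either strand.
NDUFA1: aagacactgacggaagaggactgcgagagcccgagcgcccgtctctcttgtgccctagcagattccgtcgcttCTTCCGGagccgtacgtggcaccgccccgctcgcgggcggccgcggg
COX7B: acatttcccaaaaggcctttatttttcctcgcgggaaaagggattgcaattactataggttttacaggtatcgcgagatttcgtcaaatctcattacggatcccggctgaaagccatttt
COX6B1: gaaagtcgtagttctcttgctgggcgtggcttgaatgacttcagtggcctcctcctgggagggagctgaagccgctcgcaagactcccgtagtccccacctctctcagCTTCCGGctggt
UQCR11: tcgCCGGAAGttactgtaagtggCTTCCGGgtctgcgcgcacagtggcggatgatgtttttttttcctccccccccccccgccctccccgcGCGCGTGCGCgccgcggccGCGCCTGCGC
An ETS match stood in NDUFA1 on the lower side and in COX6B1 and UQCR11 on the higher side, and UQCR11 also had 2 NRF1 matches. COX7B held neither motif in the stretch shown, and the same stretches of NDUFV2, on the lower side, and ATP5MG, on the higher side, also held neither. A match is a description of the sequence, and binding was not measured.

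Complex I, which oxidises NADH and reduces ubiquinone, had the lowest median log2 fold change of the larger complexes, -0.060 over 33 subunits. This rank depended on single arrays. Without untreated replicate 1 the median was -0.012 for complex I and -0.027 for complex IV. Without LPS replicate 1 it was -0.031 and -0.033. Complex I stayed the lowest without LPS replicate 2 and without untreated replicate 2. Of the 33 subunits, 23 were below 0 on all arrays together (69.7%, against 65.6% of the bright genes described above). Past the nominal threshold, 8 were lower (24.2%, against 7.91% of all genes tested and 14.1% of bright genes) and 1 was higher (3.03%, against 3.72% of all genes tested). Both LPS arrays lay below both untreated arrays for 14 (42.4%, against 25.7% of all genes tested and 37.9% of bright genes) and above both for 3 (9.09%, against 19.7% and 14.5%). NDUFS1, the largest subunit and a carrier of iron-sulphur clusters, had log2 levels of 10.44 and 10.48 on the LPS arrays, against 10.75 and 10.60 on the untreated arrays. Its groups did not overlap, and the log2 fold change was -0.21 (95% interval -0.39 to -0.041, limma adjusted p = 0.365), a fold of 0.862.

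NDUFV2, another iron-sulphur core subunit, had 12.17 and 12.17 in LPS-treated cells and 12.46 and 12.28 in untreated cells, a log2 fold change of -0.20 (adjusted p = 0.357). NDUFA7, an accessory subunit, had 10.44 and 10.50 in LPS-treated cells and 10.77 and 10.58 in untreated cells, a log2 fold change of -0.21 (adjusted p = 0.404). For all 3 genes untreated replicate 1 was the highest array by a margin, and untreated replicate 2 lay closer to the LPS arrays. NDUFA1, a small membrane subunit needed for assembly of the complex, had closely matched replicates, 12.77 and 12.80 in LPS-treated cells and 12.94 and 12.95 in untreated cells, with a log2 fold change of -0.16 (adjusted p = 0.318).

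The other core subunits lay nearer to 0. NDUFV1, which binds NADH, had a log2 fold change of -0.0068, NDUFS7 one of -0.080 and NDUFS3 one of 0.023. NDUFB1, an accessory membrane subunit, was the highest of the complex, with 13.51 and 13.49 in LPS-treated cells and 13.30 and 13.44 in untreated cells, a log2 fold change of 0.13 (adjusted p = 0.386), while its second probe set gave -0.15. NDUFB7 followed with 0.099 and NDUFA11, which sits in the membrane arm, with 0.058. NDUFAB1, the mitochondrial acyl carrier protein, had 0.018.

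Complex II, succinate dehydrogenase, which also belongs to the tricarboxylic acid cycle, was represented by 3 genes. SDHA, the flavoprotein that oxidises succinate, had 11.65 and 11.72 in LPS-treated cells and 11.78 and 11.75 in untreated cells, a log2 fold change of -0.084 (adjusted p = 0.558). The membrane anchors SDHD and SDHC had -0.044 and -0.014, and the groups overlapped for both. SDHC depended on the probe set: of its 7 above the filter, the brightest gave -0.014 and the next 3 gave 0.20, 0.18 and 0.30.

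Complex III, which passes electrons from ubiquinol to cytochrome c, held the member with the smallest p in either direction. UQCRB, a ubiquinone-binding subunit, had 13.13 and 13.12 in LPS-treated cells and 13.28 and 13.35 in untreated cells, a log2 fold change of -0.18 (95% interval -0.28 to -0.091, adjusted p = 0.285). All 4 of its probe sets lay lower, at -0.18, -0.19, -0.24 and -0.26, and on each the LPS arrays lay below the untreated ones. The core proteins UQCRC1 and UQCRC2 had -0.099 and -0.047, and UQCRQ and UQCR10 0.022 and 0.0076. UQCR11, the smallest subunit, had 12.97 and 13.08 in LPS-treated cells and 12.89 and 12.89 in untreated cells, a log2 fold change of 0.13 (adjusted p = 0.382), and -0.026 when probe sets that can bind several transcripts were left out.

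Complex IV, cytochrome c oxidase, had members on both sides with groups that did not overlap. COX7B had 13.30 and 13.26 in LPS-treated cells and 13.46 and 13.43 in untreated cells, a log2 fold change of -0.16 (95% interval -0.25 to -0.080, adjusted p = 0.296), and its second probe set gave -0.15. COX6B1, which faces the intermembrane space, had 12.79 and 12.80 in LPS-treated cells and 12.67 and 12.64 in untreated cells, a log2 fold change of 0.14 (95% interval 0.044 to 0.23, adjusted p = 0.333). Replicates of both genes lay close together in both groups, yet neither gene passed the adjusted threshold. COX5B, which binds zinc, had 13.14 and 13.15 in LPS-treated cells and 13.30 and 13.23 in untreated cells, a log2 fold change of -0.12 (adjusted p = 0.362), while a dim probe set of it gave 0.098. COX5A had -0.075, COX6A1 had -0.082, COX4I1 -0.0096, COX8A -0.0026 and COX7A2 0.023, and the supercomplex factor COX7A2L had -0.0057.

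Several complex IV subunits come in a widely expressed form and in forms largely restricted to certain tissues. Levels of different probe sets depend on their probes and place a gene only roughly: ATP5MF, a widely expressed subunit of complex V, lay at the 43.8 percentile of all probe sets. The 11 widely expressed complex IV subunits tested lay between the 93.7 and 99.6 percentiles of all probe sets by level. COX4I2, a form known from lung and induced by low oxygen, lay at the 72.7 percentile, with 8.19 and 8.50 in LPS-treated cells and 8.29 and 8.37 in untreated cells. The striated muscle forms COX6A2 and COX7A1 lay at the 44.4 and 38.4 percentiles. The forms known from testis lay at the 62.7 percentile (COX6B2), and, under the filter, at the 20.7 (COX7B2) and 2.33 percentiles (COX8C).

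None of the restricted forms passed the test. COX6A2 had 6.80 and 6.55 in LPS-treated cells and 6.86 and 6.91 in untreated cells, a log2 fold change of -0.21 (95% interval -0.46 to 0.027, adjusted p = 0.455). COX7A1 had 6.56 and 6.53 in LPS-treated cells and 6.58 and 6.29 in untreated cells, and COX4I2 had overlapping groups too. COX7B2 had 5.60 and 5.52 in LPS-treated cells and 5.28 and 5.47 in untreated cells, and COX8C had 4.05 and 4.001 in LPS-treated cells and 3.97 and 3.93 in untreated cells, levels at which no test was made.

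Complex V members showed the smallest spread of differences among the larger complexes. All 18 lay within 0.2 of 0 and 16 within 0.1, with a median of -0.021. ATP5MC2, one of 3 genes for the same mature c subunit of the proton-conducting ring, had 12.50 and 12.53 in LPS-treated cells and 12.72 and 12.65 in untreated cells, a log2 fold change of -0.17 (adjusted p = 0.327). At their brightest probe sets its 2 sister genes were not lower: ATP5MC1 had 0.031 and ATP5MC3 0.032. This contrast depended on the probe set: the dimmer ATP5MC3 ones gave -0.036 and -0.015, and the dimmer ATP5MC2 one 0.26. ATP5F1E, the epsilon subunit of the central stalk, had 13.63 and 13.68 in LPS-treated cells and 13.74 and 13.77 in untreated cells, a log2 fold change of -0.098 (adjusted p = 0.364).

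ATP5MG, the g subunit of the membrane part, was the highest of complex V, with 13.98 and 13.94 in LPS-treated cells and 13.85 and 13.84 in untreated cells, a log2 fold change of 0.11 (95% interval 0.042 to 0.18, adjusted p = 0.326). Its next 2 probe sets gave 0.12 and 0.16 and the dimmest -0.053. ATP5ME and ATP5F1D had 0.098 and 0.073, and the stator subunit ATP5PD -0.085. The catalytic subunits ATP5F1A and ATP5F1B had -0.048 and 0.0017. ATP5IF1, which inhibits the enzyme when it would hydrolyse ATP, had -0.025.

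**Figure D4:**
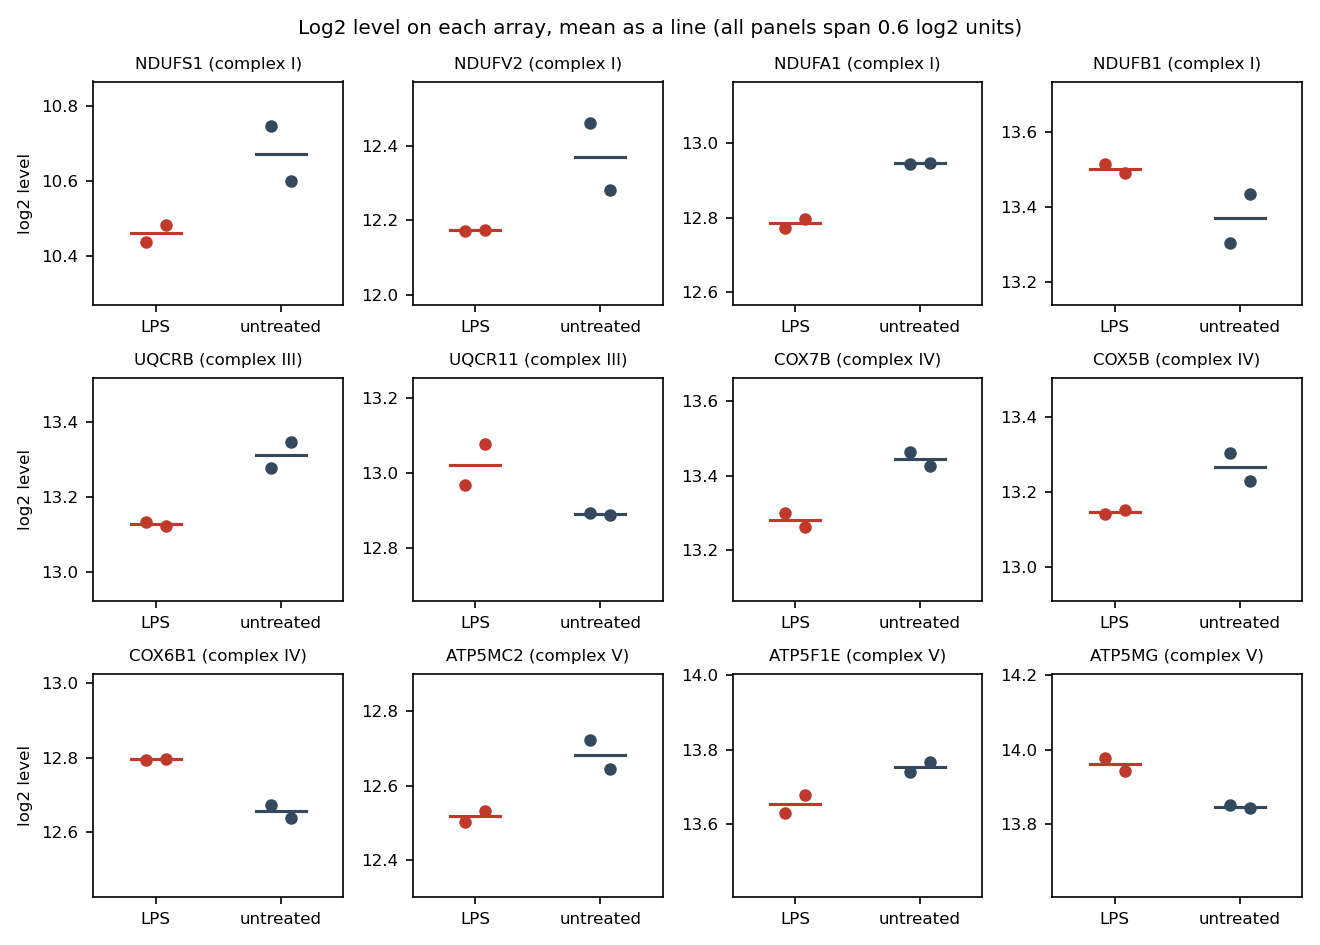
Log2 level (vertical axis) on each LPS array and each untreated array for members described in the text, 1 panel each. Points are single arrays and lines are group means; the untreated arrays of NDUFS1 and NDUFV2 lie further apart than those of NDUFA1, COX7B or COX6B1.

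Of the non-coding transcripts, NDUFV1-DT lay at the 71.6 percentile by level and the others were dim. NDUFV2-AS1, antisense to NDUFV2, had 6.17 and 6.04 in LPS-treated cells and 6.53 and 6.27 in untreated cells, a log2 fold change of -0.30 (adjusted p = 0.394), and NDUFV1-DT had 0.20 (adjusted p = 0.505). NDUFB2-AS1 lay under the filter.

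Further probe sets of the same genes gave a second reading. The 80 symbols had 155 probe sets, and 143 were above the filter, 91 of them lower and 52 higher in LPS-treated cells. Groups did not overlap for 54 of the lower ones and 20 of the higher ones, while over all 38229 probe sets tested 24.2% were lower and 19.1% higher without overlap. With adjustment over probe sets 3 of the 38229 were called (0.00785%), and 0 of them belonged to a member. Of the 40 members with more than 1 probe set above the filter, 16 had probe sets on both sides of 0. The 66 dimmer probe sets, which did not choose the values above, had a median log2 fold change of -0.037, with 62.1% below 0, against -0.0082 and 53% for the 14402 dimmer probe sets of all genes tested. These comparisons are not matched for level. Several of the 66 were bright, though dimmer than the probe set chosen, and bright genes leaned downward on these arrays. A difference from probe sets of like level was not tested.

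Disagreement was widest for NDUFS1, UQCRC2 and ATP5MC2. One NDUFS1 probe set had 8.46 and 8.57 in LPS-treated cells and 9.34 and 8.78 in untreated cells, a log2 fold change of -0.54, while the dimmest above the filter gave -0.052. A dim UQCRC2 probe set had 6.60 and 6.55 in LPS-treated cells and 6.96 and 7.26 in untreated cells, -0.53, against -0.047 for the brightest. For ATP5MC2 the dimmer probe set gave 0.26, opposite to the brightest. The value of these genes therefore depends on the probe set read, and 42 of the brightest probe sets are of types that can bind transcripts of more than 1 gene.

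Other genes of oxidative metabolism also had 0 genes past the adjusted threshold in each of 7 lists. For the counts that follow, the shares over all genes tested were 51.8% below 0, 7.91% lower past the nominal threshold and 3.72% higher past it. These shares are not matched for level. In the level bins with mean levels of 9.36, 10.03 and 10.82, the median of all genes was -0.034, -0.048 and -0.049. Assembly factors, carriers with ubiquinone synthesis, and the tricarboxylic acid cycle list had median levels of 10.15, 9.71 and 10.92. Their median log2 fold changes were -0.047, -0.056 and -0.084, and a difference from genes of like level was not tested. Of 54 assembly factors, 36 were below 0, and 3 were lower and 0 higher past the nominal threshold. LYRM7, a chaperone for the iron-sulphur protein of complex III, had 10.54 and 10.35 in LPS-treated cells and 10.91 and 10.67 in untreated cells, a log2 fold change of -0.34 (adjusted p = 0.334), and COX16, a complex IV assembly factor, had -0.13 (adjusted p = 0.391). The list of mobile carriers and ubiquinone synthesis held 20 genes. It also counts dehydrogenases that reduce ubiquinone, and CYC1, a complex III subunit outside the symbol rule, at 0.013. Of the 20, 14 were below 0, and 3 were lower and 0 higher past the nominal threshold. COQ8A had -0.29 (adjusted p = 0.331) and COQ5 had -0.26 (adjusted p = 0.349). These ubiquinone synthesis genes had larger differences than any protein-coding subunit, and did not pass either.

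Of 23 genes of the tricarboxylic acid cycle and pyruvate dehydrogenase, 17 were below 0, and 3 were lower and 2 higher past the nominal threshold. The largest difference was upward: OGDH, a subunit of the 2-oxoglutarate dehydrogenase complex, had 10.35 and 10.50 in LPS-treated cells and 9.93 and 10.10 in untreated cells, a log2 fold change of 0.41 (95% interval 0.21 to 0.62, adjusted p = 0.285). PDK4, a kinase that inactivates pyruvate dehydrogenase, had 7.33 and 7.39 in LPS-treated cells and 7.84 and 7.63 in untreated cells, a log2 fold change of -0.38 (adjusted p = 0.320). PDK1, a kinase of the same family, had 0.18 (adjusted p = 0.365). With BNIP3, a mitophagy receptor, at 0.11, it had the smallest limma p of the 8 genes of the hypoxia list. In that list 4 genes were above and 4 below 0, with a median of -0.0077. Past the nominal threshold, 1 was higher and 0 lower.

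Genes that control the family were taken as a list of 19 nuclear regulators, of which 17 lay above the level filter. Log2 fold changes of the 17 ran from -0.19 to 0.13, and 11 lay within 0.1 of 0. Of 17 nuclear regulators tested, 1 was lower and 0 higher past the nominal threshold: POLG2, the accessory subunit of the mitochondrial DNA polymerase, at -0.19 (adjusted p = 0.419), while HCFC1, a transcriptional coregulator, had 0.13. The transcription factors NRF1, GABPA, YY1 and TFAM had 0.034, -0.084, -0.043 and -0.028. The 7 subunits encoded by mitochondrial DNA had a median level percentile of 99.9, with ND6 the dimmest at 82.9, and log2 fold changes from -0.052 (ND4) to 0.012 (ATP6), ND2 at -0.028, and 0 of them passed the nominal threshold. The list of adenine nucleotide and phosphate carriers also holds VDAC channels of the outer membrane. Its 6 genes had a median of 0.0081, with SLC25A4 at 0.10 and SLC25A5 at 0.030, and also 0 past the nominal threshold.

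The direction of the small shift depended on how the arrays were scaled. With the values as deposited, 27 members were above 0 and 50 below. Quantile normalization gave 37 above and 40 below with a median of -0.0073, cyclic loess 39 above and 38 below with a median of 0.0078, and median centring 22 above and 55 below with a median of -0.045. Over the same settings the median of all genes tested was -0.0047, 0.013, 0.010 and -0.019 in the order deposited, quantile, cyclic loess and median centring. Complexes I and II stayed below 0 in all 4, with complex II at -0.0032 with quantile normalization and -0.0021 with cyclic loess. Complexes III, IV and V turned above 0 with cyclic loess, and III and IV also with quantile normalization.

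**Figure D5:**
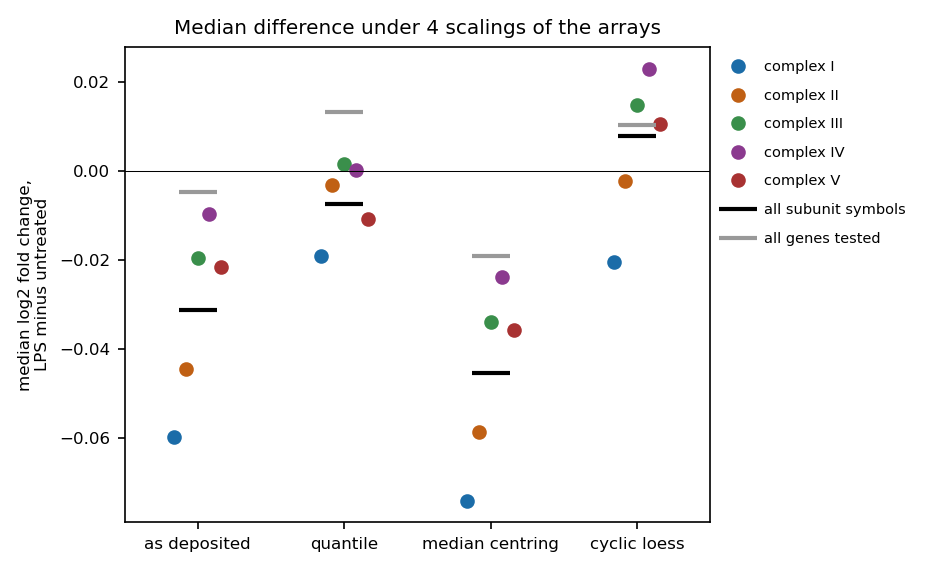
Median log2 fold change (LPS minus untreated, vertical axis) of each complex, of all subunit symbols and of all genes tested, under 4 scalings of the arrays. The median over all subunit symbols runs from -0.045 with median centring to 0.0078 with cyclic loess.

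The arrays matched their label and were much alike. Of the 8 epithelial markers, EPCAM, CDH1, KRT8, KRT18 and KRT19 lay at or above the 99.1 percentile. ESRP1 lay at the 97.1, ELF3 at the 90.0 and CLDN4 at the 84.6 percentile. ESRP1 had 11.77 and 11.80 in LPS-treated cells and 12.06 and 11.97 in untreated cells (log2 fold change -0.23, limma adjusted p = 0.303). The leukocyte markers PTPRC and CD14 lay at the 21.6 and 21.8 percentiles, under the filter. Of the other leukocyte markers, LYZ lay at the 98.6, CD53 at the 75.2, CD3E at the 67.1 and ITGAM at the 43.6 percentile. CD53 had 8.56 and 8.87 in LPS-treated cells and 8.39 and 8.38 in untreated cells (log2 fold change 0.33, adjusted p = 0.364), and LYZ had -0.15 (adjusted p = 0.349). The part of these markers in the subunit values was not tested. Summed log2 levels of the marker lists were 101.0 on both LPS arrays and ranged from 100.8 to 101.2 in untreated cells for 8 epithelial markers, from 46.9 to 47.1 in LPS-treated and from 46.8 to 46.9 in untreated cells for 6 leukocyte markers, from 57.2 to 57.7 in LPS-treated and from 56.2 to 57.3 in untreated cells for 8 fibroblast and endothelial markers, and from 53.7 to 53.8 in LPS-treated and from 53.4 to 54.0 in untreated cells for 8 striated muscle markers. Arrays correlated pairwise at 0.996 to 0.998, and their median levels were 7.03 and 7.03 in LPS-treated and 7.004 and 7.03 in untreated cells. The poly-A RNA spike-ins, added in the laboratory, averaged 7.98 and 7.92 on the LPS arrays and 8.60 and 8.25 on the untreated arrays, with all 24 probe sets lower on both LPS arrays. The difference between the 3′ and 5′ probe sets of ACTB, a measure of RNA integrity and labelling, was 0.387 and 0.633 on the LPS arrays and 0.644 and 0.863 on the untreated arrays. That of GAPDH was 0.000997 and 0.107 on the LPS arrays and 0.0244 and 0.0653 on the untreated arrays, so that the groups overlapped. The part of the spike-in and RNA integrity values in the subunit values was not tested.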

How the data were processed

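Total RNA from 2 LPS-treated and 2 untreated MKN45 cultures was labelled with biotin and hybridised to Affymetrix arrays, per the labels' protocols. The authors deposited log2 values, already scaled alike between arrays, as judged from the values. MAS5 and RMA are named in the submitters' processing notes; versions, and which of the 2 made the values, are not given in the sources used here. Such summaries compress low levels and would not show a change common to all transcripts.

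Control probe sets (62) and probe sets with a mean under the 30 percentile (6.06) were left out, leaving 38229. Symbols came from the platform annotation, which gave a single symbol for 41091 probe sets and none or several for 13522. Of the first, 41037 matched RefSeq (GRCh38.p14) by Entrez identifier, and 0 symbols changed. In R 4.3.3, limma 3.58.1 (lmFit, eBayes with intensity trend, 7.06 degrees of freedom, two-sided, no block) was fitted on these probe sets. The brightest probe set then stood for each of 16252 genes, with Benjamini-Hochberg adjustment over genes and a threshold of 0.05. Intervals are 95% intervals. The number of arrays limits the precision: an exact permutation test of 2 against 2 cannot go below p = 0.333. The fit was tested on simulated data.

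Named genes were those past the threshold (0), the 3 highest and 3 lowest log2 fold changes in complexes I, III, IV and V, the SDH genes, the isoform families, ATP5IF1, NDUFAB1, the 3 members with the widest probe-set range, and the 2 smallest p of each pathway list. Named after their values were seen were NDUFA1, NDUFV1, NDUFS7, NDUFS3, ATP5F1A, ATP5F1B, ATP5MF, CYC1, ATP6, ND6, NRF1, GABPA, YY1, TFAM, the non-coding transcripts and the marker genes. The members, lists and tests were chosen with earlier results of these data known. Alternatives were other filters, scalings, variance models, a replicate block, other probe-set choices and leaving out each array. Motifs were searched on both strands of RefSeq promoter windows.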

Additional observations from a re-analysis of the deposited data

How the results depend on the processing

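The count of 0 subunit genes past the adjusted threshold held in every alternative run. Past the nominal threshold (unadjusted p under 0.05), the 4 higher and 15 lower members became 0 and 3 without the intensity trend; the 4 higher became 2 with probe sets averaged per gene and 1 without _x_at and _s_at probe sets. Leaving out 1 array gave 1 to 5 higher, with 1 without LPS replicate 1 or LPS replicate 2, and 6 to 23 lower, with 6 without LPS replicate 1, 7 without LPS replicate 2, 10 without untreated replicate 1 and 23 without untreated replicate 2. In these fits the lone array is assumed to vary like the other group.

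The genes called over all genes numbered 4, from 3 to 5 when 1 array was left out, and 10 (5 higher, 5 lower) when the trend was fitted on 1 probe set per gene, an alternative chosen after seeing the data. The labels give both groups replicates 1 and 2, and the study names 2 independent experiments without tying the numbers to them. Deviations of same-numbered arrays from their group means correlated at 0.214 over 38229 probe sets and 0.298 over the 77 members, as a description. With the replicate block, 7 genes were called (5 higher, 2 lower), 0 of them members, and 5 members were higher and 15 lower past the nominal threshold.

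The median log2 fold change over the members, -0.031, was -0.0073 with quantile normalization and 0.0078 with cyclic loess, and -0.047 to -0.0080 with 1 array left out, nearest to 0 without untreated replicate 1. For complex I it was -0.019 and -0.020 with those scalings, and -0.077 to -0.012 with 1 array left out. Complex II was 0.032 without _x_at and _s_at probe sets and ranged from -0.0995 to 0.0039. Complex III was 0.0017 with quantile normalization, 0.015 with cyclic loess, -0.044 with the mean of probe sets and -0.050 without _x_at and _s_at probe sets, and ranged from -0.045 to -0.0090. Complex IV was -0.024 with median centring, 0.023 with cyclic loess and 0.0066 without _x_at and _s_at probe sets, and ranged from -0.074 to -0.027. Complex V was 0.011 with cyclic loess and -0.0022 with the mean of probe sets, and ranged from -0.041 to 0.022. The cause was not tested. Over the named genes and alternatives, 717 values kept within the spread between arrays and 54 moved beyond it. Filters, variance models and the replicate block cannot change the log2 fold change of a brightest probe set. Leaving out 1 array cannot move it beyond this spread, which is drawn from the same arrays. Many of the 717 values were thus fixed in advance. Only scalings, probe-set choices and left-out arrays could turn a sign, and for COX6B1 and NDUFV2, with 1 probe set each, not the probe-set choices. The groups of UQCRB, COX7B, COX6B1, NDUFS1, NDUFV2 and NDUFA7 did not overlap, so leaving out 1 array could not turn their sign. Median centring moves all genes alike, by less than these differences. All probe sets of UQCRB, COX7B and NDUFS1 above the filter lay lower, so their choice could not turn it either. With quantile normalization and cyclic loess these genes kept their sign, as did NDUFA7 with the mean of probe sets. ATP5MC2, ATP5MC3 and NDUFB1 turned with the mean of probe sets and without _x_at and _s_at probe sets, and UQCR11, ATP5MG and COX5B without the latter types alone.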
